A study of Mus musculus with 25 samples.

Results

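Active chromatin and its contacts were compared between CD8+ T cells with and without the cytokine IL-2, in WT mice and in mice with a deletion upstream of Il2ra, the gene of the IL-2 receptor alpha chain CD25. Of the 25 samples of the series, 4 were used: H3K27ac HiChIP libraries of WT control, WT IL-2, upstream-deletion control and upstream-deletion IL-2 cells. They were chosen by their labels, as the libraries that pair IL-2 with a control in these genotypes. All 4 came from spleen CD8+ T cells of strain C57BL/6J, and were pre-activated. The series' protocol for CD8+ T cells is a culture of 2 days with anti-CD3 and anti-CD28, or with IL-2, then 4 h of rest before IL-2, and does not say which culture these libraries had. Control cells were left untreated after pre-activation and the others received IL-2. HiChIP joins fragments that touch in the nucleus, pulls down those that carry a chromatin mark with an antibody and counts read pairs between genome bins. H3K27ac, acetylated lysine of histone H3, marks active promoters and enhancers.

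IL-2 binds a receptor made of CD25, the beta chain CD122 (Il2rb) and the common gamma chain (Il2rg). The receptor activates the kinases JAK1 and JAK3, which phosphorylate STAT5. STAT5 dimers bind DNA at the palindrome TTCNNNGAA and drive genes of feedback control (Cish, Socs1), of survival (Bcl2), of growth and of the receptor itself. In CD8+ T cells IL-2 supports clonal expansion and effector function, while genes that hold resting T cells out of the cell cycle, many of them targets of FOXO factors, are known to be turned down by growth signals.

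Each genotype and treatment had 1 library, so each treatment had 2. The files are numbered as replicate 2 in their names, and no label tells apart animals or cultures. No genotype and treatment was repeated. The spread behind every test was therefore the gap between the IL-2 responses of both genotypes, pooled over features, which may be technical, and any difference in handling between control and IL-2 cells cannot be told apart from IL-2. The coordinates of the deletion and the dose and duration of IL-2 for the HiChIP cells are missing from the sources at hand. The libraries listed from 56113 to 94922 loops, that is, pairs of 1 kb bins with a contact count, and between 1965388 and 3596995 contacts. The IL-2 library was the deeper of each genotype. Each listed loop had at least 20 contacts. Of 111561 loops listed in any of the 4 libraries, 39676 were listed in all 4 and were tested. Bins anchoring a loop in all 4 libraries numbered 23356 of 42675. Their coverage, the deposited count of reads on the bin, was tested as well. From 33 to 12 kb upstream of the Il2ra start bin the WT libraries listed 15 and 17 bins, the upstream-deletion control none and the upstream-deletion IL-2 library 1, so that this stretch holds no tested bin. Of 10 markers of CD8+ T cells, 9 had a gene-start bin listed in all 4 libraries, and Cd8a was the other. None of 10 B cell and none of 8 erythroid markers was listed in any of the 4. Of 10 markers each, 1 of NK cells, 2 of myeloid cells and 3 of CD4+ or regulatory T cells were listed in all 4, and Foxp3, Ncr1, Lyz2 and Csf1r in none. Summed coverage of the start bins was 24734 to 36458 reads for the CD8+ list, 808 to 1675 for NK cells, 1464 to 2905 for myeloid cells and 5351 to 10289 for CD4+ and regulatory T cells (unscaled, over the bins each library listed). For these last 3 the sums were higher in the deeper IL-2 libraries, which listed as many or more of the bins. Scaled and tested, the NK marker Tyrobp (gene end, log2 0.05) and the myeloid markers Cd68 (0.09) and Spi1 (gene end, 0.01) did not pass. In bulk chromatin, more cells carrying the mark at a site and more of the mark per cell cannot be told apart.

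The promoters of genes known as direct STAT5 targets are shown first, because their start bins were among those that changed with IL-2. They are RefSeq sequences of GRCm38.p6, the build of the deposited tables (mm10), printed 5′ to 3′ along the gene's strand, and capitals mark TTCNNNGAA, which reads the same on both strands. Tnfrsf18 (chr4:156026072-156026321, plus strand) encodes the costimulatory receptor GITR. Socs3 (chr11:117969367-117969616, minus strand) encodes a feedback inhibitor of JAK kinases, Bcl6 (chr16:23988853-23989102, minus strand) a transcriptional repressor, and Lta (chr17:35205352-35205601, minus strand) the cytokine lymphotoxin alpha. For these, and for Il2ra (chr2:11642542-11642791, plus strand), the 250 bases before the start are given.

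Tnfrsf18: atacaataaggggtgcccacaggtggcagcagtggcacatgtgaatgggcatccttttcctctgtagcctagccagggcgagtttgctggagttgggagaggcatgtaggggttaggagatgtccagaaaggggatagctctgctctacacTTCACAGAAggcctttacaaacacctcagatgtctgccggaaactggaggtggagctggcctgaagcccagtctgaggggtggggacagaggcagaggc
Socs3: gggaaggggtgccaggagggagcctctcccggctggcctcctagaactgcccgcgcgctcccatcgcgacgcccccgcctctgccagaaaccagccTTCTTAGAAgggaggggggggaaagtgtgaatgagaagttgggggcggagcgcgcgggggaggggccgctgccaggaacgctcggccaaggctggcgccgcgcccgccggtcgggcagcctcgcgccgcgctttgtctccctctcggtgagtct
Bcl6: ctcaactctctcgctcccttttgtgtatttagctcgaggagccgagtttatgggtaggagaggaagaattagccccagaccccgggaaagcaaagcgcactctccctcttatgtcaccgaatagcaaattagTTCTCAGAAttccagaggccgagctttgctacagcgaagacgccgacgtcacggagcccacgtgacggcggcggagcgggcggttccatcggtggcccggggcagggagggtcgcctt
Lta: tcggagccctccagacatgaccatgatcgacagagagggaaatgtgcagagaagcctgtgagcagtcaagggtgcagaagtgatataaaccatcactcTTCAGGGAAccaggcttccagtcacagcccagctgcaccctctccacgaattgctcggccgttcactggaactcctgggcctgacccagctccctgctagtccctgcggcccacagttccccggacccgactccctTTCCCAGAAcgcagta
Il2ra: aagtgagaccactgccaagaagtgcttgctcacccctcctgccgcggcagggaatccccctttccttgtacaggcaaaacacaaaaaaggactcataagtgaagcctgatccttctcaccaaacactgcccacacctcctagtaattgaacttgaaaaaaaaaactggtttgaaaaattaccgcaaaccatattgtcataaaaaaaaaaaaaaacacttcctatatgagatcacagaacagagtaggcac

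In Cish (chr9:107296654-107296683, plus strand), the gene of the STAT5 feedback inhibitor CIS, and in Gzmb (chr14:56262285-56262314, minus strand), the gene of the cytotoxic protease granzyme B, the matches lie just after the start, and 30 bases around them are shown.

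Cish: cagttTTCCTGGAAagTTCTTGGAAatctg
Gzmb: gcagtagggcaggagttTTCATAGAAagca

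Counted from the first base of the transcript as 1, with no 0, the matches begin at −99 in Tnfrsf18, −154 in Socs3, −118 in Bcl6, −152 and −16 in Lta, 1 and 12 in Cish and 38 in Gzmb. Of the 26 genes of the STAT5 list, 15 had such a promoter in a tested bin, and 6 of these held a match within 250 bases before to 50 after the start. Il2ra and 8 others held none in that window. Of all 21263 promoters of protein-coding genes 7.69% held a match. The share was 8.19% of 1172 promoters in bins that rose with IL-2, 6.58% of 1686 in bins that did not pass the test and 6.36% of 723 in bins that fell. These shares are descriptions of letters in a short window.

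Coverage of H3K27ac bins changed in both directions with IL-2. Of 23356 bins, 6317 rose (27%) and 6117 fell (26.2%) in edgeR's quasi-likelihood test at an adjusted p under 0.05. Most of these changes were small, since 713 bins rose (3.05%) and 308 fell (1.32%) by at least 1.5-fold. TMM scaling centres the changes near 0, so the balance of rises and falls is relative to that centre. The middle 90% of bins lay between −0.41 and 0.48. Of all bins 83.4% moved the same way in both genotypes, and of the 12434 that passed, 12420. Over all bins the log2 changes in WT and in the upstream deletion had r = 0.897, a description over 23356 bins that share the same bin set and scaling but no library. The test favours bins that moved alike, since a gap between genotypes is its error. By at least 1.5-fold, 45 of 3585 bins with a gene start rose (1.26%), 344 of 12270 other bins inside genes (2.80%) and 324 of 7501 outside genes (4.32%), a comparison of counts with no test. Bins at gene starts rose by any amount in 31.9% of cases and fell in 21.0%. DESeq2 called 3486 bins higher and 2884 lower. Fits without the WT control, WT IL-2, upstream-deletion control or upstream-deletion IL-2 library, which leave no room for a genotype term, called 1673, 1021, 1028 and 1118 bins higher and 1210, 450, 476 and 606 lower.

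**Figure D1:**
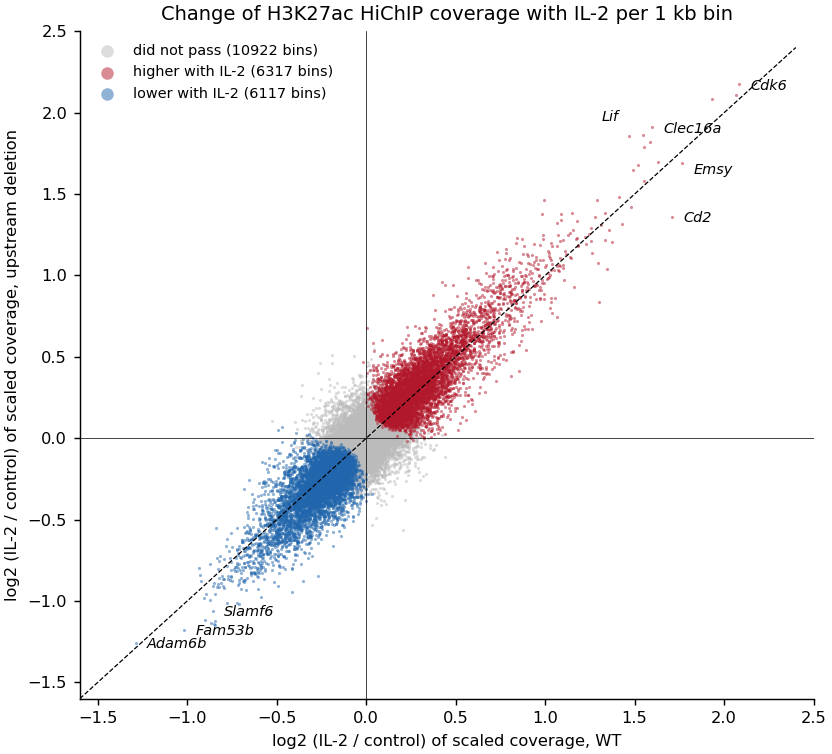
Each point is a 1 kb bin, with the log2 ratio of scaled coverage, IL-2 over control, in WT on the horizontal axis and in the upstream deletion on the vertical axis. Red and blue bins passed edgeR's test (6317 higher, 6117 lower), grey bins did not, the dashed line marks equal change, and named bins at Cdk6, Clec16a, Lif, Emsy and Cd2 lie at the upper end and those at Adam6b, Fam53b and Slamf6 at the lower end.

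The largest rise of any bin lay inside Cdk6, the gene of a kinase that drives G1 phase with D-type cyclins. In the bin at 5:3460001, coverage scaled for depth went from 1092 to 4629 reads in WT and from 1176 to 5304 in the upstream deletion, where the first value is the control and the second IL-2 (log2 2.13, SE 0.05, adjusted p = 1.29e-54). Within WT and the upstream deletion the log2 change was 2.08 and 2.17. All 31 tested bins assigned to Cdk6, 29 of them inside the gene, rose, with a median of 0.69. Clec16a, an endosomal gene beside the cytokine inhibitor gene Socs1, held 2 of the strongest rises. Its bin at 16:10725001, 60.0 kb from the Socs1 start, went from 999 to 3026 reads in WT and from 1037 to 3898 in the upstream deletion (log2 1.75, SE 0.05, adjusted p = 4.84e-45), and the bin at 16:10640001 went from 1689 to 4847 reads in WT and from 1495 to 4784 in the upstream deletion (log2 1.60, SE 0.05, adjusted p = 1.46e-46). Of 33 bins assigned to Clec16a, 32 rose.

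Several of the strongest rises lay outside genes. The bin at 7:98583001, 3.1 kb outside Emsy, a gene of a BRCA2-binding protein, went from 333 to 1133 reads in WT and from 359 to 1161 in the upstream deletion (log2 1.73). Near Xirp1 and 16.8 kb from the start of Csrnp1, the gene of a cysteine- and serine-rich nuclear protein, the bin at 9:120001001 went from 398 to 1194 reads in WT and from 395 to 1391 in the upstream deletion (log2 1.69). A bin 102.5 kb outside Gadd45g, a stress-induced gene, at 13:51951001 went from 718 to 2099 reads in WT and from 583 to 2117 in the upstream deletion (log2 1.69). In these 3 bins both IL-2 libraries were above both control libraries. The bin 0.3 kb outside Ccr4, a chemokine receptor gene, at 9:114489001 rose by log2 1.66, and the other 7 bins assigned to Ccr4 rose as well. Ccr4 is also in the list of CD4+ and regulatory T cell markers, of whose other measured members Cxcr5 (gene end) fell by 0.15 and Ikzf2 (gene end) did not pass (0.06), and the part of such cells was not tested. Inside Lif, the gene of a cytokine of the IL-6 family, the bin at 11:4265001 went from 1326 to 3675 reads in WT and from 1195 to 4337 in the upstream deletion (log2 1.66), and all 19 bins assigned to Lif rose. The remaining rises named by the rule ran from 1.31 to 1.56. Those of Chtop and Bcl2 lay inside the gene. The others lay outside the gene they are named by: Gm5544 (0.2 kb), Cd2 (2.9 kb), Mtpap (7.6 kb), Nabp1 (36.5 kb) and Klf14 (199 kb). Bcl2, the gene of the survival protein, was mixed along its length: of 41 bins 18 rose and 12 fell, from log2 −0.68 to 1.31. Cd2, an adhesion receptor gene of T cells, had 9 bins that rose and 5 that fell of 26. The SE of these 15 rises lay between 0.05 and 0.09, and adjusted p between 1.29e-54 and 1.33e-28.

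The largest fall lay outside protein-coding genes on chromosome 12. Its bin at 12:113430001, for which Adam6b is the nearest protein-coding gene at 58.6 kb, holds the immunoglobulin heavy chain D segment Ighd4-1 (113430528 to 113430538) and begins next to the J segment Ighj1 (113429781 to 113429833). Coverage there went from 2147 to 881 reads in WT and from 1372 to 574 in the upstream deletion (log2 −1.27, SE 0.06, adjusted p = 4.49e-33). Fam53b fell along its whole measured length: the bin at 7:132797001 went from 1631 to 806 reads in WT and from 1935 to 857 in the upstream deletion (log2 −1.09), and all 28 bins assigned to it fell, with a median of −0.46. The bin at 10:60351001 lies inside Cdh23, a cadherin gene, and inside Vsir, the gene of the inhibitory receptor VISTA, and went from 3787 to 2032 reads in WT and from 4388 to 2021 in the upstream deletion (log2 −1.004). The antiviral zinc finger gene Zc3hav1 had 17 of 23 bins lower and none higher, with the bin at 6:38343001 going from 3771 to 2088 reads in WT and from 4429 to 2011 in the upstream deletion (log2 −0.99). Vgll4, a cofactor of TEAD transcription factors, had 8 of 10 bins lower, and its bin at 6:114905001 went from 2211 to 1230.1 reads in WT and from 2908 to 1312 in the upstream deletion (log2 −0.99). Both bins inside Slamf6, a receptor of T cells, fell, by 0.95 at 1:171939001 and by 0.77. Btg2, an antiproliferative gene, had all 13 bins assigned to it lower (log2 −0.93 at 1:134066001, 7.9 kb outside the gene). Il6st, the gp130 signalling chain, had 12 of 15 lower (log2 −0.92 at 13:112424001, 39.1 kb outside the gene). Further falls, at Klhl42, Slc20a1, Tsc22d4, Fryl, Cbx7 and Scml4, lay between −0.998 and −0.88. In each of the 15 bins both IL-2 libraries were below both control libraries, and the adjusted p was at most 3.99e-17. The largest fall, −1.27, was smaller than the largest rise, 2.13.

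Gene starts were then grouped by role. A gene's start bin was measured where RefSeq gives its start, and for 40 of the 194 measured list genes without a given start the gene-end bin of larger coverage was used, marked here as gene end. Of 3632 genes measured in this way 1205 rose (33.2%) and 709 fell (19.5%), with a median log2 of 0.03, and each list is described beside these shares. The examples of a list are its up to 4 smallest p-values in this same test, so their passing it follows largely from the choice. Counts of examples below describe these starts only, not all measured starts. Genes in the text beyond the examples were chosen after their values were seen. Of the 64 starts given as list examples 60 passed, and the call was lost at 4 with DESeq2, at 32 without a genotype term and at 15, 38, 38 and 33 without the WT control, WT IL-2, upstream-deletion control or upstream-deletion IL-2 library, always with the same direction. The 16 that passed without any 1 library were Bcl2l1, Ccng2, Ccr4, Cd3d, Cd3g, Cish, Eif4e, Fosl2, Ikbke, Ldha, Lif, Osm, Pim3, Rbl2, Sesn3 and Trp53inp1.

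**Figure D2:**
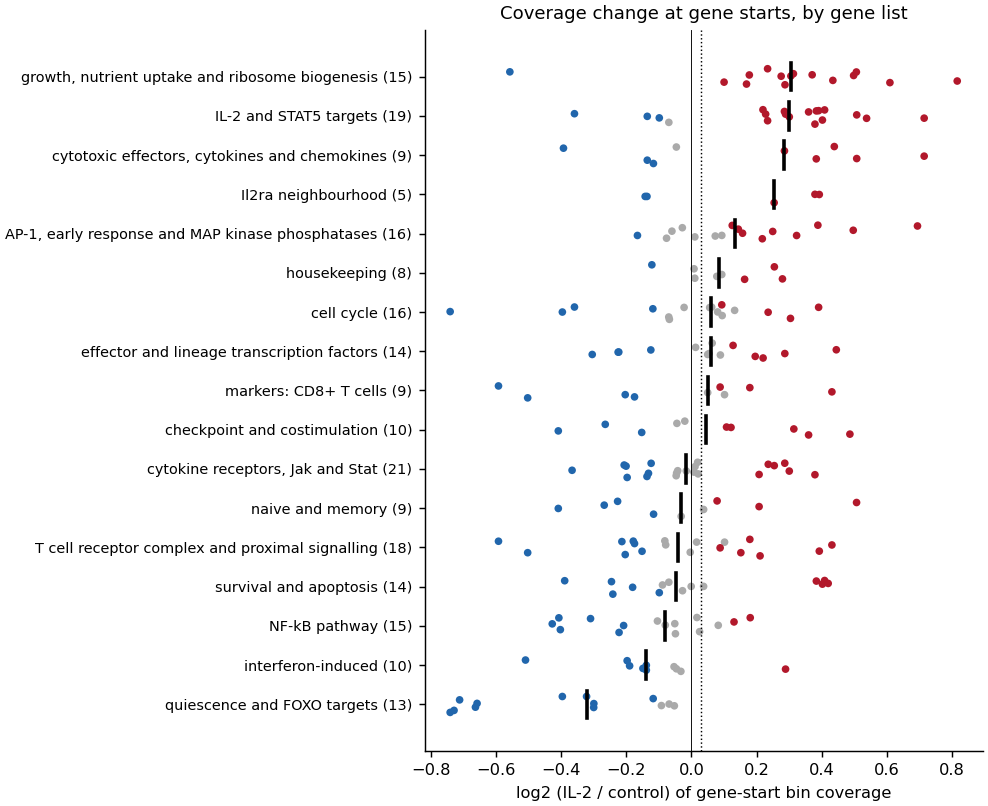
Each point is the gene-start bin of a list member, placed by its fitted log2 change with IL-2, red where it rose, blue where it fell and grey where it did not pass edgeR's test. Thick bars are list medians, the dotted line is the median of all 3632 genes (0.03), and numbers in parentheses are measured members. Medians run from −0.32 for quiescence and FOXO targets to 0.31 for growth genes.

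Of the receptor chains of IL-2, Il2ra and Il2rb rose and Il2rg did not pass. Il2rb (gene end), the signalling beta chain, went from 5452 to 6169.9 reads in WT and from 4993 to 6723 in the upstream deletion (log2 0.30, SE 0.04, adjusted p = 1.24e-09). Il2rg coverage was 2169 and 2167 reads in WT and 2262 and 2289 in the upstream deletion (log2 0.01, adjusted p = 0.909). Over the list of cytokine receptors, Jak kinases and Stat factors 6 of 21 measured starts rose and 7 fell, with a median of −0.02. Il12rb2, the inducible IL-12 receptor chain, went from 3018 to 3667 reads in WT and from 2854 to 3495 in the upstream deletion (log2 0.29), and Il4ra, the IL-4 receptor chain, from 11064 to 13084 reads in WT and from 12453 to 14985 in the upstream deletion (log2 0.25). Stat4, which transmits IL-12 signals, was the largest fall, from 3597 to 2899 reads in WT and from 3634 to 2705 in the upstream deletion (log2 −0.37, SE 0.05, adjusted p = 4.57e-11). The start of Stat5b, a mediator of IL-2 signals, did not pass (log2 0.01, adjusted p = 0.835), nor did that of Stat5a (−0.05, adjusted p = 0.394).

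Direct targets of IL-2 and STAT5 rose at 15 of 19 measured starts, with a median of 0.30, and 3 fell (Pim1, Lta and Ccnd3). Cish went from 7631 to 10525 reads in WT and from 7487 to 11458 in the upstream deletion (log2 0.54, SE 0.04, adjusted p = 4.75e-23). The start of Osm (gene end), the cytokine oncostatin M, went from 5854 to 8126 reads in WT and from 6130.2 to 8930.0 in the upstream deletion (log2 0.51, adjusted p = 4.16e-21). Both IL-2 libraries lay above both controls at each of these. The survival genes Bcl2l1 and Bcl2 rose by 0.41 and 0.40, and Bcl2l1 went from 4239.7 to 5338 reads in WT and from 3919 to 5506 in the upstream deletion. The largest log2 change was at the start of Lif, which went from 301 to 467 reads in WT and from 287 to 504 in the upstream deletion (log2 0.71). Socs1 went from 3703 to 4193 reads in WT and from 2785 to 3711 in the upstream deletion (log2 0.29), so that its upstream-deletion IL-2 value was only just above the WT control. Of the genes whose promoters are printed above, Tnfrsf18 (0.36), Gzmb (0.29), Bcl6 (0.23) and Socs3 (0.22) rose, and Lta, which holds 2 matches, fell by 0.14. Other starts of 2 of the fallers moved the other way: Pim1, a survival kinase, had −0.10 at 17:29490001 and 0.27 at 17:29493001, and Ccnd3, a D-type cyclin, −0.36 at 17:47505001 and 0.36 at 17:47593001. Of 264 loops with an anchor at the starts of this list 30 rose and none fell, with 14 of the gains at Cish and 6 at Osm. At the starts of all genes 325 rose and 164 fell of 13802 loops, and at housekeeping starts 13 rose and none fell of 98.

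Growth genes rose nearly throughout. Of 15 measured starts of growth, nutrient uptake and ribosome biogenesis genes 14 rose and 1 fell, with a median of 0.31. Ldha, the lactate dehydrogenase subunit of glycolysis, went from 2515 to 4224 reads in WT and from 2108 to 3911 in the upstream deletion (log2 0.82, SE 0.05, adjusted p = 8.30e-28). Srm (gene end), spermidine synthase, rose by 0.61, Nop58, a nucleolar ribonucleoprotein, by 0.51, and Eif4e, the cap-binding translation factor, by 0.43. The amino acid transporter genes Slc7a5 (gene end) and Slc7a1 rose by 0.50 and 0.31, and the glucose transporter gene Slc2a1 by 0.37. The exception was Fbl (gene end), a nucleolar methyltransferase gene that shares its bin with Dyrk1b, a protein kinase gene, and went from 620.4 to 425 reads in WT and from 610.2 to 410.4 in the upstream deletion (log2 −0.56).

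Quiescence genes and FOXO targets moved the other way: 10 of 13 measured starts fell, none rose, and the median was −0.32. Rbl2, a retinoblastoma family protein that represses cell cycle genes in resting cells, went from 5807 to 3595 reads in WT and from 7251 to 4197 in the upstream deletion (log2 −0.74, SE 0.04, adjusted p = 8.10e-29). Ccng2, an atypical cyclin that restrains division, went from 7627 to 4892 reads in WT and from 8175 to 4629 in the upstream deletion (log2 −0.73, SE 0.04, adjusted p = 7.61e-29). In both, the IL-2 libraries lay below both controls. Sesn3, an inhibitor of mTORC1, fell by 0.71 and Trp53inp1 (gene end), a p53-induced stress gene, by 0.66. Cdkn1b, the CDK inhibitor p27, went from 5385 to 4227 reads in WT and from 5935 to 4362 in the upstream deletion (log2 −0.40). Klf6, Btg1 and Foxo1 were at −0.05, −0.07 and −0.09 and did not pass. Rbl2 and Cdkn1b are also in the cell cycle list, of which 4 of 16 starts rose and 4 fell with a median of 0.06. There Ccnd2 (gene end), a D-type cyclin, rose by 0.39, and E2f3 and E2f1, activators of S phase genes, by 0.30 and 0.24. Of 143 loops at the starts of the quiescence list 23 fell and none rose, where 164 fell and 325 rose of 13802 at all gene starts. Most of the losses were at Cdkn1b (6), Ccng2 (5), Ddit4 (5), Trp53inp1 (gene end, 3) and Rbl2 (3).

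Survival genes moved in both directions. Of 14 measured starts 4 rose, namely the antiapoptotic Bcl2l1 and Bcl2 and the survival kinases Pim3 and Pim2, between 0.38 and 0.42. The 5 that fell included the proapoptotic Bax (−0.18), Bbc3 (−0.24) and Pmaip1 (gene end, −0.25), and Pim1. Mcl1, a short-lived antiapoptotic protein gene, did not pass (−0.07). Pim3 went from 4119 to 5418 reads in WT and from 3907 to 5322 in the upstream deletion (log2 0.42, SE 0.04, adjusted p = 3.49e-15).

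Genes of the T cell receptor complex moved in both directions, 6 of 18 starts up and 7 down with a median of −0.04. The CD3 chain genes Cd3g, Cd3d and Cd3e fell, while Cd247 of the same list did not pass (log2 0.10, adjusted p = 0.0995). Cd3g went from 4576 to 3139 reads in WT and from 4909.9 to 3144 in the upstream deletion (log2 −0.59, SE 0.04, adjusted p = 1.86e-21). Prkcq, the kinase PKC theta, went from 4290.4 to 5584 reads in WT and from 4689 to 6209.9 in the upstream deletion (log2 0.39). Thy1 (gene end), a surface glycoprotein of T cells, rose by 0.43. Of the 9 measured CD8+ T cell markers, which overlap this list, 3 rose and 4 fell. Of 9 naive and memory genes 3 rose and 4 fell. Cd27, a costimulatory receptor, fell by 0.41 and S1pr1 (gene end), which guides exit from lymph nodes, by 0.27. Of 14 effector transcription factor genes 5 rose and 4 fell. Batf3 and Irf4, partners in activated T cells, rose by 0.44 and 0.29, while Batf fell by 0.22. Runx1 and Ikzf3 (gene end) fell by 0.30 and 0.22.

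Of 16 AP-1, early response and MAP kinase phosphatase genes 9 rose and 1 fell, with a median of 0.13. Fosl2, an AP-1 subunit, went from 6022 to 9658 reads in WT and from 6236 to 10177 in the upstream deletion (log2 0.69, SE 0.04, adjusted p = 1.42e-29), and Egr1 (gene end), a zinc finger factor, rose by 0.50. Of 15 NF-kB pathway genes 2 rose and 6 fell, with a median of −0.08. Those that fell were Tnfaip3, Nfkbia, Ikbke, Tnip1 (−0.31), Rel (−0.22) and Nfkbie (−0.21), and those that rose Nfkbid (0.18) and Nfkb1 (gene end, 0.13). Tnfaip3, the deubiquitinase A20 and an inhibitor of the pathway, went from 9884 to 7463 reads in WT and from 12319 to 9028 in the upstream deletion (log2 −0.43, SE 0.04, adjusted p = 1.74e-18). Nfkbia, the inhibitor IkB alpha, went from 5707 to 4256 reads in WT and from 7493 to 5755 in the upstream deletion (log2 −0.40). For Nfkbia the upstream-deletion IL-2 value lay above the WT control. Ikbke, a kinase of the pathway, fell by 0.41. Of 143 loops at NF-kB gene starts 12 fell and none rose, with 9 of the losses at Tnfaip3 and 3 at Nfkbia. At the starts of all genes 164 of 13802 loops fell and 325 rose.

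Of 10 interferon-induced genes 1 rose (Socs1) and 6 fell, with a median of −0.14. Psmb9 and Tap1, both among the falls, share a bin, so that 1 measurement (−0.14) is counted for both. Gbp3, a guanylate-binding GTPase, went from 1899 to 1418 reads in WT and from 2079 to 1366 in the upstream deletion (log2 −0.51). Of 9 cytotoxic, cytokine and chemokine genes 5 rose and 3 fell, and the median was 0.29. The neighbouring cytokine genes Tnf and Ltb moved apart: Tnf went from 3068 to 4111 reads in WT and from 2784 to 3820.5 in the upstream deletion (log2 0.44) and Ltb from 5057 to 3863 reads in WT and from 5649 to 4292 in the upstream deletion (log2 −0.39). Of 10 checkpoint and costimulation genes 5 rose and 3 fell. Tnfrsf9, the costimulatory receptor 4-1BB, rose by 0.49 and Tigit, an inhibitory receptor, by 0.31, while Ctla4, an inhibitory receptor, fell by 0.26. Of 8 housekeeping genes 3 rose, Actb (gene end) by 0.28, Rpl13a by 0.25 and Rplp0 by 0.16, and B2m fell by 0.12. The 8 housekeeping starts ranged from −0.12 to 0.28.

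Over all gene starts, ranked by fold by a rule added after values were seen, the largest rise was at Maff, a small Maf transcription factor, which went from 1404 to 3029 reads in WT and from 1456 to 3231 in the upstream deletion (log2 1.13, SE 0.05, adjusted p = 1.59e-34). Ccr4 went from 2204 to 4183 reads in WT and from 2265 to 4573 in the upstream deletion (log2 0.97), and Vim, the intermediate filament vimentin, from 1587 to 3158 reads in WT and from 1971 to 3639.8 in the upstream deletion (log2 0.94). Rmi2 (gene end), next to Socs1, rose by 1.05. Mfsd2a, a lysophospholipid transporter, and Ldha also stood among the 12 largest, which ended at 0.75. Of the 12 largest falls, 5 were genes of the quiescence list (Rbl2, Ccng2, Sesn3, Trp53inp1 and Pik3ip1). Others were Kdm2b, a histone demethylase (log2 −0.64), and Il16, a T cell chemoattractant cytokine (log2 −0.61).

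Il2ra (2:11642792 to 11693194, plus strand) rose at its promoter and the first part of the gene body and fell further on. In the promoter bin, 2:11642001 to 11643000, coverage went from 3793 to 5027 reads in WT and from 3231 to 4114 in the upstream deletion (log2 0.38, SE 0.04, adjusted p = 1.14e-12). All 5 tested bins upstream, from −11 to −4 kb, rose, with medians of 0.35 for WT and 0.34 for the upstream deletion. The bin 5 kb upstream went from 3273 to 4137 reads in WT and from 2483 to 3094 in the upstream deletion (log2 0.33) and the bin 11 kb upstream from 429.9 to 652 reads in WT and from 289.7 to 397 in the upstream deletion (log2 0.55). At both, the upstream-deletion IL-2 value lay below the WT control, so that the groups overlap and the rise is within each genotype. Inside the gene, from the promoter bin to 15 kb, 11 of 14 bins rose and none fell, with a median of 0.27. The bin of largest coverage, 2 kb in, went from 5775 to 7868 reads in WT and from 4367 to 5646 in the upstream deletion (log2 0.41). From 18 kb to the gene's end, 9 of 10 bins fell and none rose, with a median of −0.28. The bin 21 kb in went from 1465 to 987 reads in WT and from 1451 to 1211 in the upstream deletion (log2 −0.42), and the bin 48 kb in went from 1061 to 758 in WT and from 1437 to 1292 in the upstream deletion (log2 −0.31). All 10 were below their control in both genotypes, by a median of 0.36 in WT and 0.19 in the upstream deletion, a gap that was not tested. The position of the split was chosen after its values were seen. Without the WT IL-2 library the bins 6, 7 and 9 kb in were at −0.22, −0.23 and −0.12 and those 48 and 49 kb in at 0.049 and 0.084. That fit sets the upstream-deletion IL-2 library against controls of both genotypes, which differ in level here. Without the upstream-deletion control they were at −0.02, −0.03 and −0.04, and the bin 49 kb in at 0.07. Of the 29 bins 25 had a call, and without a genotype term all 25 lost it at the same direction, as did 9 with DESeq2. Without the WT IL-2 library or the upstream-deletion control, each of these bins lost its call or changed sign. Without either of the other libraries most of them lost their call. The promoter bin lost it without the WT IL-2 library (log2 0.23), without the upstream-deletion control (0.27) and without a genotype term (0.38, adjusted p = 0.118).

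**Figure D3:**
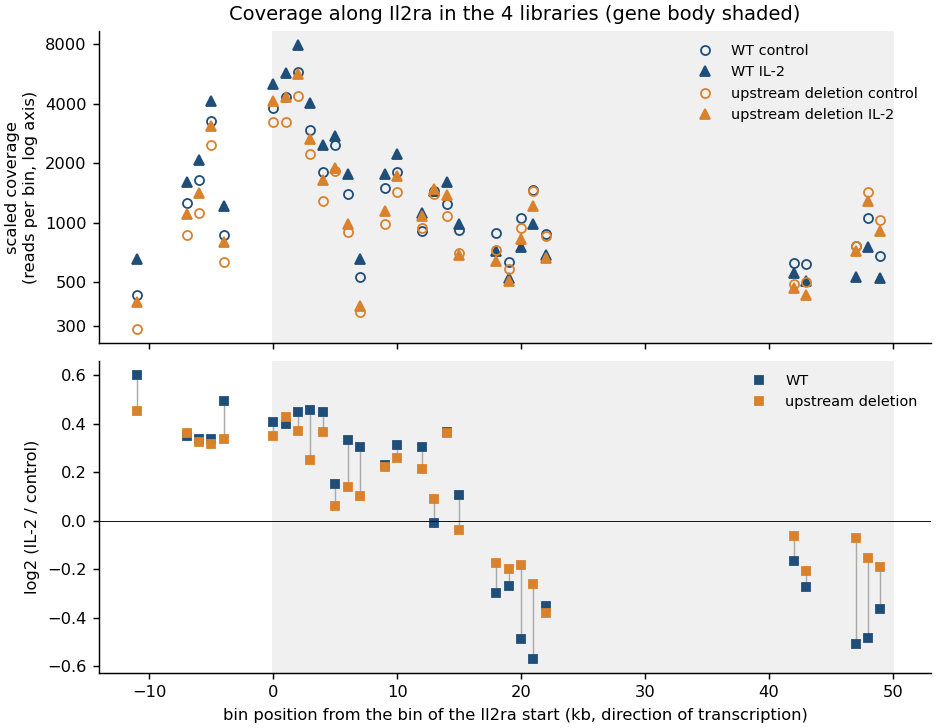
Above, scaled coverage of each tested bin of Il2ra in the 4 libraries (log axis) by its distance from the start bin in kb. Below, the log2 ratio of IL-2 over control in WT and in the upstream deletion, joined by a grey line. Ratios are above 0 for the bins from −11 to 12 kb in both genotypes and below 0 from 18 kb on.

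The neighbours of Il2ra moved unevenly. Prkcq rose by 0.39, Pfkfb3, a regulator of glycolysis, went from 3521 to 4189 reads in WT and from 3266 to 3905 in the upstream deletion at its start (log2 0.25), and Il15ra, the IL-15 receptor chain, fell by 0.14. Gdi2, held by the list named for the Il2ra neighbourhood, lies on chromosome 13 and is no neighbour. Contacts of the Il2ra promoter were less clear than its coverage. Of 43 pairs of the promoter bin listed in any of the 4 libraries 11 were listed in all 4, and none passed edgeR's test, with 3 at an unadjusted p under 0.05 and a smallest adjusted p of 0.0941. DESeq2 called none of the 11 either. The pair with the bin 40 kb upstream, in Rbm17, had 38 and 89 contacts in WT and 38 and 37 in the upstream deletion, control first. The pair with the bin 5 kb upstream had 100 and 148 in WT and 78 and 75 in the upstream deletion. The pair with the bin 5 kb downstream had 62 and 99 contacts in WT and 49 and 70 in the upstream deletion and did not pass (log2 0.45, SE 0.18, adjusted p = 0.124). Scaled for depth, 10 of the 11 pairs were higher with IL-2 in WT, against 6 in the upstream deletion. Their sums went from 489 to 672 contacts in WT and from 452 to 483 in the upstream deletion. Whether the genotypes differ in this was not tested, as each has 1 library per treatment.

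Loops changed in the same regions. Of 39676 tested loops 1396 gained contacts (3.52%) and 609 lost contacts (1.53%) with IL-2 in edgeR's test, and by at least 1.5-fold 1212 (3.05%) and 514 (1.3%). All but 1 of the 2005 moved the same way in both genotypes, against 61.7% of all loops. The test is of the change common to both genotypes, so it favours loops that moved alike. Over the 39676 loops the log2 changes of both genotypes had r = 0.391, a description. The largest gain joined bins 3.9 and 9.9 kb beyond Pim1, at 17:29500001 and 17:29506001, which went from 27 to 112 contacts in WT and from 25 to 97 in the upstream deletion (log2 1.86, SE 0.20, adjusted p = 4.69e-16). Between Hemk1 and 6430571L13Rik, beside Cish, the loop from 9:107336001 to 9:107341001 went from 32 to 115 contacts in WT and from 41 to 133 in the upstream deletion (log2 1.63). From inside Lta, 17:35204001, to 1.2 kb outside Nfkbil1, 17:35218001, it went from 68 to 219 contacts in WT and from 45 to 165 in the upstream deletion (log2 1.61, adjusted p = 1.99e-22). In each of these 3 loops both IL-2 libraries had more contacts than both controls.

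The number of loops called depended on the test. A loop had to reach 20 contacts in each library to be tested, and edgeR's common dispersion for loops was at its lower bound of 9.77e-05, with 1 spread shared by all loops. DESeq2 called 1 gain, the Lta to Nfkbil1 loop, and no loss, with 490 gains and 88 losses at an unadjusted p under 0.05. Tested per read of the anchors, edgeR called 1 gain and 1 loss. Fits without the WT control, WT IL-2, upstream-deletion control or upstream-deletion IL-2 library called 469, 109, 335 and 333 gains and 166, 6, 81 and 61 losses.

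The longest of the named loops joined Clec16a at 16:10639001 with Socs1 at 16:10783001, 144 kb apart, and went from 20 to 66 contacts in WT and from 21 to 55 in the upstream deletion (log2 1.41, SE 0.25). Inside Cdk6 the loop from 5:3461001 to 5:3466001 went from 24 to 81 contacts in WT and from 33 to 86 in the upstream deletion (log2 1.41). A bin beside Castor1, an arginine sensor gene, and the Osm gene end, at 11:4223001 and 11:4236001, went from 23 to 63 contacts in WT and from 20 to 61 in the upstream deletion (log2 1.38). Further gains, of 1.30 to 1.57, lay beside Emsy, in Fli1, an ETS factor, between Rpl13a and Flt3l, and beside Rbpj, the effector of Notch. The largest loss was at Arhgap45, a GTPase-activating protein gene, from 10:80027001 to 10:80032001, which went from 67 to 33 contacts in WT and from 66 to 21 in the upstream deletion (log2 −1.44, SE 0.22, adjusted p = 5.65e-08). Tnfaip3 lost contacts at a loop 48 kb long from inside the gene, 10:19014001, to 10:19062001, from 63 to 36 contacts in WT and from 69 to 31 in the upstream deletion (log2 −1.12). A loop between 10:19172001 and 10:19185001, both outside genes, lost 1.34. The Trp53inp1 gene end, with a bin 10 kb away, went from 57 to 23 contacts in WT and from 41 to 27 in the upstream deletion (log2 −1.12). Losses of 1.09 to 1.18 lay at Mcl1 and Adamtsl4, Cd2bp2, Pde4b, Adam6b, Fam53b, and Os9 and B4galnt1.

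**Figure D4:**
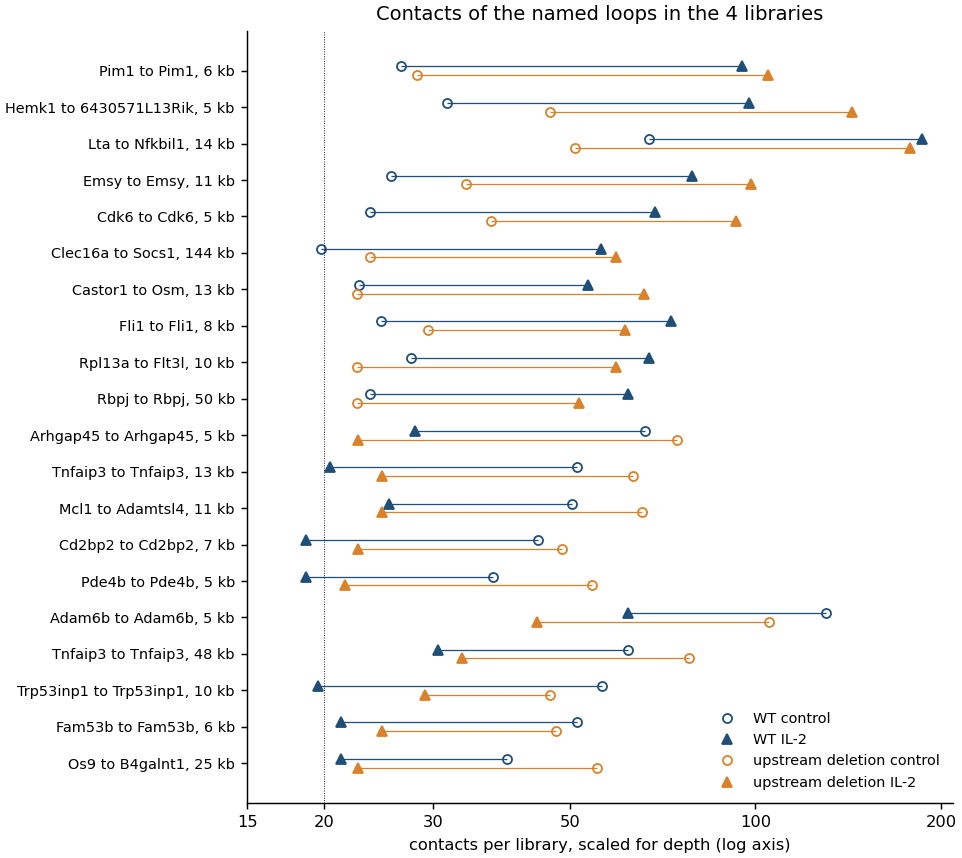
Contacts of the 10 largest gains (upper rows) and 10 largest losses (lower rows), at most 1 per locus, scaled for depth, on a log axis. Open circles are controls and triangles IL-2, blue WT and orange upstream deletion, lines join the libraries of a genotype, and the dotted line marks 20 contacts, the listing limit before scaling. Rows were chosen among loops that passed and moved the same way in both genotypes.

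Called loops were then grouped by position. Chained over gaps of up to 5 kb they fell into 460 loci. Of these 246 held gains only, 199 losses only and 15 both, and the 10 largest held 694 of the 2005 loops (34.6%). Tested loops per locus were not counted, and they are unevenly spread. The Rbpj start had 92 tested loops, against a median of 2 per gene with a tested loop. Whether calls are denser than tested loops in these loci was not tested. The largest, a 79 kb region with Cish, Hemk1, Mapkapk3 and 6430571L13Rik, held 274 gains and no loss, with a median of 0.85. The region of Actb, Fbxl18 and Fscn1 held 83 gains, that of Rbpj and Smim20 79, that of Clec16a, Socs1 and Rmi2 44, and that of Castor1, Lif and Osm 31, none with a loss. The region of Lta, Tnf, Ltb and Nfkbil1 held 55 gains and 7 losses. The largest regions of losses were those of Arhgap45, Cnn2, Gpx4 and Polr2e (28), of Os9 and B4galnt1 (25), of Tnfaip3 (22) and of Laptm5, a lysosomal protein gene (21), none with a gain. At gene starts, 194 of 3478 genes with a tested loop had a loop that rose and 107 a loop that fell, 1 of them both. The Cish start had 14 gains among 37 loops, that of Csrnp1 12 among 16 and that of Rbpj 12 among 92. The Tnfaip3 start had 9 losses among 26 loops, that of Cdkn1b 6 among 11 and that of Ccng2 5 among 6.

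Loop changes went with changes in the coverage of their anchors. Where the coverage of both anchors rose, 1199 of 6883 loops gained contacts and 1 lost them, with a median of 0.33, equal to the median change of the anchors' mean coverage, 0.33. Where both fell, 465 of 5077 lost and none gained, with a median of −0.33 against −0.27 for the anchors. Where neither anchor passed, 6 gained and 13 lost of 7898. Of the 2005 called loops 1664 had both anchors called in the loop's own direction and 32 an anchor called in the other. Over the 39676 loops the change in contacts and the mean change of the anchors had r = 0.724, a description only, since a bin's coverage includes the reads of its own loops. Tested per read of the anchors, the Lta to Nfkbil1 loop still gained contacts (log2 0.78, adjusted p = 0.00488), and no other loop gained. A loop from the Cish start to 9:107331001 in Hemk1 had fewer contacts per anchor read (log2 −0.81, adjusted p = 0.0204), with contacts going from 85 to 77 in WT and from 65 to 77 in the upstream deletion. No other loop passed, with 1992 at an unadjusted p under 0.05. The Pim1 loop had 0.97 (adjusted p = 0.0523) and the Cdk6 loop −0.12.

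**Figure D5:**
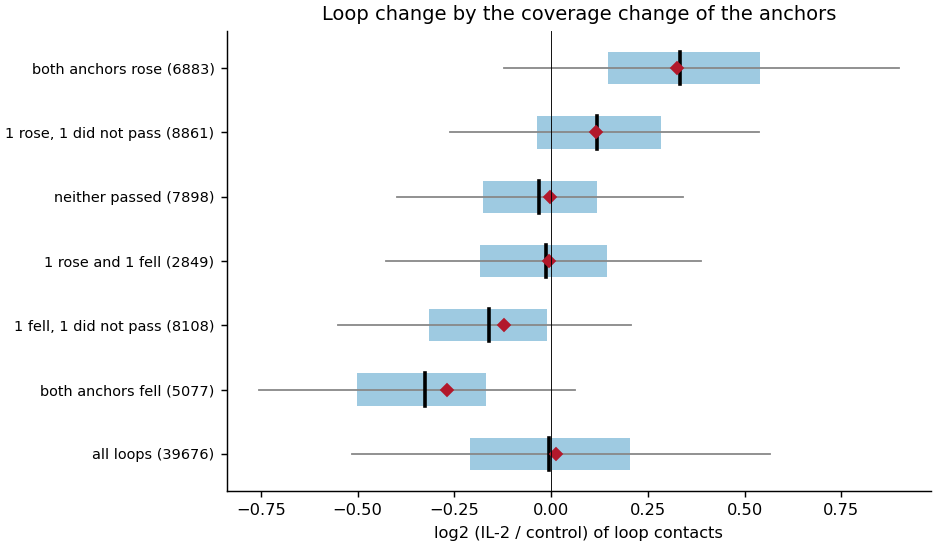
Fitted log2 change of loop contacts with IL-2, grouped by whether the coverage of each anchor rose, fell or did not pass, with the number of loops in parentheses. Boxes span the middle 50% of loops, thin lines the middle 90%, black bars are medians, and red diamonds are the median change of the anchors' mean coverage. Medians fall from 0.33 where both anchors rose to −0.33 where both fell.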

How the data were processed

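H3K27ac HiChIP was analysed in 4 libraries, WT and upstream deletion, control and IL-2; the 2 libraries of an intron deletion were not analysed here. Per the submitters' processing notes the authors' tools included CASAVA, Bowtie2 2.2.6 and HiC-Pro with mm10. The deposited tables hold counts: per the file headers, the contact count of each pair of 1 kb bins and the coverage of each bin. The tables list no pair under 20 contacts or under 5 kb; no source at hand states the rule by which pairs were listed, so pairs that left or entered the lists with IL-2 are outside these comparisons, and tested pairs hold 59.1% to 80.1% of a library's listed contacts.

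Pairs and bins listed in all 4 tables were matched exactly. Counts were fitted with edgeR 4.0.16 (R 4.3.3; TMM scaling, genotype and treatment as terms, quasi-likelihood test, 1 residual degree of freedom), adjusted by Benjamini-Hochberg over all features at 0.05. "Passed", "rose", "fell" and "called" refer to that test. Scaled values are counts divided by the relative effective library size. The scripts were tested on simulated data. Alternatives were DESeq2 1.42.0, other scalings, a filter on low counts, no genotype term, each library left out, contacts per anchor read, and, chosen after seeing the data, edgeR's newer quasi-likelihood method. Tables were joined with Python 3.11.15 and pandas 2.3.3.

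Named features were the 15 largest rises and falls of bins and 10 of loops that passed and moved the same way in both genotypes, at most 1 per 50 kb; up to 4 genes per list by smallest p; and all tested Il2ra bins and promoter pairs. Features take the name of the protein-coding gene (RefSeq, GRCm38.p6) whose start, else body, they hold, else of the nearest gene. The members and lists were chosen with earlier results of these data known. A few genes that the rule names are not reported here.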

Additional observations from a re-analysis of the deposited data

Results flagged for a closer look

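At the Il2ra locus 6 contacts of the promoter and 4 bins moved in opposite directions with IL-2 in WT and in the upstream deletion. Each value is a log2 ratio of 1 IL-2 library to 1 control library, and the difference between the genotypes was not tested. Among the promoter's contacts, the pair with the bin 40 kb upstream had 1.01 in WT and −0.105 in the upstream deletion, that with the bin 7 kb upstream 0.667 and −0.0261, and that with the bin 5 kb upstream 0.349 and −0.123. Within the gene, the pair 6 kb downstream had 0.6 in WT and −0.0667 in the upstream deletion, that at 10 kb 0.0417 and −0.169, and that at 21 kb −0.337 and 0.118. In 5 of these 6 pairs WT was the higher. Bin coverage moved less: the bin of Pfkfb3 at 2:11542001 had −0.0505 in WT and 0.18 in the upstream deletion, the Il2ra bins at 2:11655001 and 2:11657001 had −0.00987 and 0.105 in WT and 0.0898 and −0.0379 in the upstream deletion, and the bin of Il15ra at 2:11706001 had −0.0244 and 0.172.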

How the results depend on the processing

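Loop counts depended on the test more than coverage counts did. With DESeq2 1 loop gained contacts and 0 lost them, and 3486 bins were higher and 2884 lower. Without a genotype term edgeR called 835 loops higher and 248 lower, and 1219 bins higher and 708 lower. Per read of the anchors 1 loop gained and 1 lost. With only loops of at least 30 contacts in each library, which kept 18572 loops, 926 gained, of which 842 are among the main calls. Leaving out 1 library gave 109 to 469 loops higher and 6 to 166 lower, and 1021 to 1673 bins higher and 450 to 1210 lower; these fits have no genotype term and leave 1 library alone in an arm, assumed to vary like the others. Scaling by relative log expression or plain totals, and the newer quasi-likelihood method chosen after seeing the data, kept all 4 counts within 1.5 times. The Cdk6 loop changed sign per anchor read (−0.12). With 1 library left out, the Il2ra bin 6 kb in ranged from −0.22 to 0.62, that 7 kb in from −0.23 to 0.57, that 9 kb in from −0.12 to 0.57, that 48 kb in from −0.72 to 0.049 and that 49 kb in from −0.70 to 0.084. Their signs changed without the WT IL-2 library and, for all but the bin 48 kb in, without the upstream-deletion control; the cause was not tested. None of the 30 named bins and none of the 64 named gene starts changed sign under any alternative run. Tested loops had a median SE of 0.22 on the log2 scale and bins 0.06, so that a loop had to change by at least 0.33 to be called and a bin by 0.08. The fit with genotype as a term compares IL-2 with control within each genotype and is thus the blocked fit; no replicate numbers pair the libraries further.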

Other observations

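Several gene starts outside the lists moved strongly, chosen after their values were seen. Trmt61a, the catalytic subunit of a tRNA methyltransferase, rose by 0.92 on the log2 scale, Sdf2l1, an endoplasmic reticulum chaperone component, by 0.79 and Ifrd2 by 0.80. Jakmip1 fell by 0.64 on the log2 scale and H2az2, a histone variant gene, fell by 0.63. Loops at gene starts showed further genes outside the lists: 10 of 16 loops at the start of Plk3, a polo-like kinase, gained contacts, and 7 of 16 at Coro2a, an actin-binding protein. Losses were seen at 6 of 8 loops of Dnajc15, a mitochondrial chaperone gene, and 5 of 15 of Akna.

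Among the regions with many gains beside those described above were those of Il4ra and Nsmce1 (34 loops), Gzmb (30), Fgd2 and Pim1 (29), Tnfrsf18 and Tnfrsf4 (24) and Il2rb (23), none of these with a loss. Satb1, a chromatin organiser of T cells, had 11 gains and 4 losses over 360 kb. In the Ms4a region 17 loops lost contacts and none gained.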
